A study of Homo sapiens with 4 samples.

Results

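The genes described are 10 of the 35585 genes to which the deposited transcripts could be summed: CYP27A1, CH25H and CYP7B1 (sterol hydroxylases), NR1H2, NR1H3 and RXRA (the LXR receptors and their partner), ABCA1, ABCG1 and MYLIP (LXR targets of cholesterol efflux and uptake) and SOAT1 (cholesterol storage). They were chosen by name around CYP27A1, with the difference between the genotypes already known, so their values in that contrast are a description: no p-value is printed for them, and counts of those that pass a threshold stand only beside the share of all genes. All 10 were among the 15378 genes kept by the filter on low counts, and CH25H, with 3 and 4 estimated counts in S1KO, passed it on its WT libraries.

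RNA-seq was made from iMGL, microglia-like cells grown from WTC11, a widely used line of human induced pluripotent stem cells. The WT group was the control, and the S1KO group was edited to lack SHIP1, the inositol 5-phosphatase that INPP5D encodes, with 2 libraries of each genotype. Both groups came from the same parent line, so the comparison rests on 1 genetic background, and per the design text each genotype was represented by 2 clones. Which clone a library came from is not in the labels, so error values measure the spread between these libraries, which may be technical, and no treatment or culture time is given in the labels.

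Oxysterols are cholesterol molecules that carry an added hydroxyl group. CYP27A1 adds it to the side chain inside mitochondria, using electrons passed on by FDXR and FDX1, CH25H adds it at a neighbouring position in the endoplasmic reticulum, and CYP7B1 hydroxylates these products again on the sterol ring. Oxysterols bind the nuclear receptors LXRα (NR1H3) and LXRβ (NR1H2), which pair with RXRA on DNA and raise genes that move cholesterol out of the cell; in microglia and other macrophages this pathway handles the cholesterol of ingested membranes and myelin.

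The introns kept in CYP27A1-205 and removed in CYP27A1-201, on which their counts given further on rest in part, are shown first. CYP27A1 (ENSG00000135929, chromosome 2, 218781749 to 218815293, plus strand, GRCh38) has a coding transcript, CYP27A1-201, and a transcript, CYP27A1-205, that is annotated as retaining an intron and keeps introns 6 and 7 (numbered along CYP27A1-201). Intron 6 is 192 nt long and lies at chr2:218814188-218814379, and intron 7 is 86 nt long and lies at chr2:218814459-218814544. The intron is in capitals and 20 bases of each flanking exon in lower case, so that the joined form shows what a read across the spliced junction would hold. The stretches shown are chr2:218814168-218814399 and chr2:218814439-218814564, read from the genome on the plus strand.
Intron 6 kept, as in CYP27A1-205: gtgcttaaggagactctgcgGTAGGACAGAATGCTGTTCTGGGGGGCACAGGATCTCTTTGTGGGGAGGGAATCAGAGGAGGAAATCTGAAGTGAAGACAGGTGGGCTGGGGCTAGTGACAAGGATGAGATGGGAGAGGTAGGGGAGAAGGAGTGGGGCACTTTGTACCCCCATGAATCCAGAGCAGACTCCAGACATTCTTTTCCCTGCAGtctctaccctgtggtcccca
Intron 6 removed, as in CYP27A1-201: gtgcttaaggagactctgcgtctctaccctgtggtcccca
Intron 7 kept, as in CYP27A1-205: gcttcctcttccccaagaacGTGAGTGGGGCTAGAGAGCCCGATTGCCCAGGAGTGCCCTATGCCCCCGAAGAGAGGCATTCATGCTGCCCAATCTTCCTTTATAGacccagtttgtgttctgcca
Intron 7 removed, as in CYP27A1-201: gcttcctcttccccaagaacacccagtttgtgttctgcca
Both introns open with GT and close with AG. The deposited CYP27A1-201 is 1895 nt long, against 2286 nt in its annotated model, and CYP27A1-205 is 2566 nt long in both. The counts of these transcripts therefore do not rest on the introns alone.

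The start of ABCA1 is shown as background, since ABCA1 is the best known LXR target of the set; no value given here rests on it. RefSeq promoter windows (GRCh38), from 250 bases before to 50 after a start, were at hand for 8 of the 10 genes, in 12 windows. They were searched on both strands for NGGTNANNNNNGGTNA, a loose spelling of the direct repeat with a spacer of 4 bases that LXR and RXR bind. ABCA1 held the only match among the 12 windows, at chr9:104928209-104928224, from 69 to 54 bases before the RefSeq start and inside the first exon of the longer GENCODE model ABCA1-202. The capitals mark it on the gene's strand, in chr9:104928202-104928231 (minus strand).
ABCA1 upstream of the RefSeq start: caggcttTGACCGATAGTAACCTctgcgct
Of all 35116 windows of 300 bases, 219 (0.624%) held a match, which is a description of the letters and says nothing of binding in these cells.

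Depth ran from 21516813 to 25927881 estimated counts over the 4 libraries. Transcripts of the mitochondrial genome made up 14.2% and 18.9% in the WT libraries and 52.3% and 39.2% in the S1KO libraries, so that fewer counts were left for nuclear genes in S1KO (9319000 and 12891104, against 18055337 and 20540060). INPP5D, the edited gene, stood at 356 and 441 CPM (counts scaled for depth with TMM) in the WT libraries and 81.0 and 97.6 in the S1KO libraries, a log2 fold change of -2.16 (edgeR quasi-likelihood test, adjusted p = 0.0184; lost, like every call, without S1KO 1 and without S1KO 2). All 11 microglial and myeloid marker genes examined had counts in every library, summing to 2759 and 3113 CPM in the WT libraries and 2077 and 2142 in the S1KO libraries; 8 of the 11 had a negative log2 fold change and P2RY12 fell (adjusted p = 0.0483). WT 1 stood apart by mesenchymal transcripts: 7 marker genes summed to 3185 CPM there, against 4.41 in WT 2 and 7.82 and 19.5 in S1KO. ALB, AFP and FGB, which define hepatocytes, the main site of bile acid synthesis, had 0 counts in every library. Of the 8 hepatocyte markers 4 were tested: SERPINA1, which stood at 36.5 and 35.1 CPM in the WT libraries and 8.09 and 7.85 in the S1KO libraries, fell (adjusted p = 0.0173), and the other 3 had positive log2 fold changes without passing. Other macrophage and osteoclast markers (8 genes) summed to 54.0 and 65.1 CPM in the WT libraries and 132 and 83.4 in the S1KO libraries; 6 of 6 tested were positive, and DCSTAMP, known from cell fusion in osteoclasts, rose from 0.536 and 0.734 CPM to 6.54 and 4.61 (adjusted p = 0.0458). Pluripotency markers (5 genes) summed to 5.58 and 6.64 CPM in the WT libraries and 14.5 and 14.8 in the S1KO libraries; in 4 of 4 tested both S1KO libraries lay above both WT libraries, and 0 passed in edgeR (2 with an unadjusted p under 0.05, 1 with DESeq2). SERPINA1, P2RY12 and DCSTAMP were named after their values were seen. In bulk RNA, fewer cells of a type and less RNA per cell cannot be told apart.

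**Figure D1:**
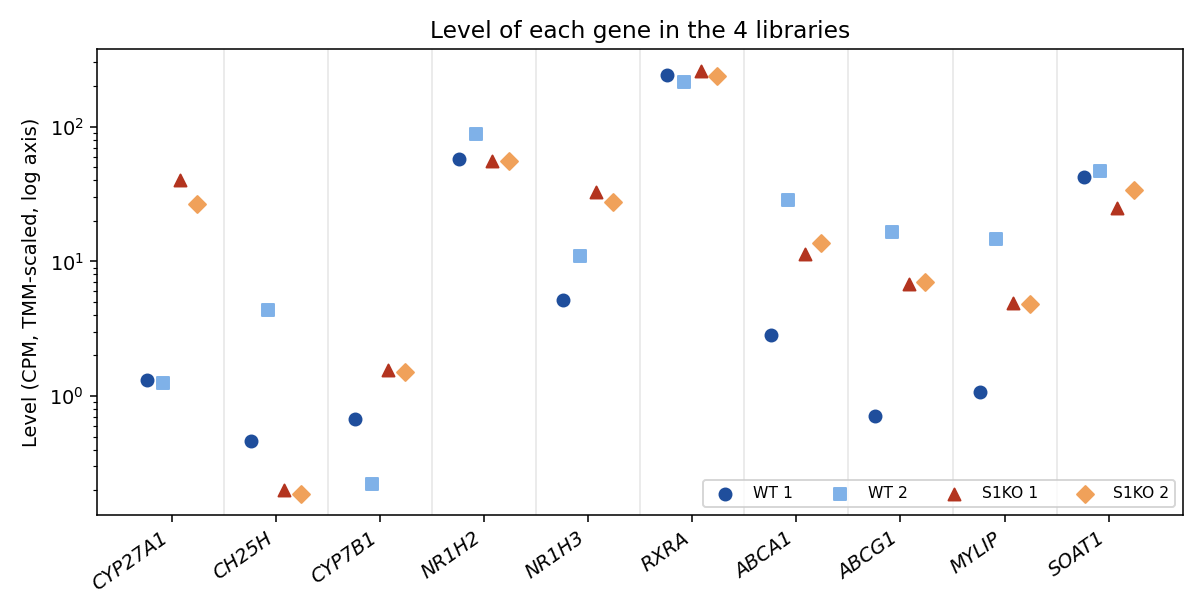
Level of each of the 10 genes in WT 1, WT 2, S1KO 1 and S1KO 2, as TMM-scaled CPM on a log axis, 1 point per library. The WT points lie together for CYP27A1, RXRA and SOAT1 and far apart for CH25H, ABCA1, ABCG1 and MYLIP, where WT 1 is at 2.82 CPM or less and WT 2 at 4.34 or more.

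The sterol hydroxylases did not move together. CYP27A1 stood at 1.32 and 1.25 CPM in WT 1 and WT 2 and at 40.4 and 26.6 CPM in S1KO 1 and S1KO 2. The S1KO libraries lay far above both WT libraries, which differed from each other by less than counting error (WT 2 over WT 1 0.941, 95% counting interval 0.585 to 1.52). The log2 fold change was 4.70 ± 0.31 (SE, 95% interval 3.96 to 5.43), rank 11 from the top of the 15378 genes. The WT values rest on 37 and 39 estimated counts and the S1KO values on 599 and 566. S1KO 1 was also 1.52-fold above S1KO 2, in the same order as their mitochondrial shares; the part of that share in the result was not tested, nor was that of the macrophage, osteoclast and pluripotency markers, whose sums were also higher in S1KO, and with mitochondrial genes left out before scaling the log2 fold change was 4.70.

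CH25H (ENSG00000138135, chromosome 10, 89205629 to 89207314, minus strand), which hydroxylates cholesterol at a neighbouring position and is known as an interferon-induced gene of macrophages, stood at 0.465 and 4.34 CPM in WT 1 and WT 2. In S1KO it stood at 0.202 and 0.188 CPM. Both S1KO libraries were below both WT libraries, but the WT libraries were themselves 9.34-fold apart (95% counting interval 5.28 to 18.0). The log2 fold change was -3.60 ± 1.15 (SE, 95% interval -6.38 to -0.82). The counts were 13 and 136 in the WT libraries against 3 and 4 in the S1KO libraries. Set against WT 2 alone, CH25H was 22.4-fold lower in the pooled S1KO libraries (95% counting interval 10.6 to 56.8), and against WT 1 alone 2.40-fold lower (0.89 to 7.10), which counting error at this depth does not separate from no difference.

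CYP7B1 (ENSG00000172817, chromosome 8, 64587763 to 64798761, minus strand), which hydroxylates the products of CYP27A1 and CH25H and so limits them as LXR ligands, was barely detected. It stood at 0.679 and 0.224 CPM in the WT libraries and at 1.55 and 1.504 CPM in the S1KO libraries, from 19.1, 7.01, 22.7 and 32.1 estimated counts. The S1KO libraries lay above both WT libraries and close to each other. The log2 fold change was 1.76 ± 0.68 (SE, 95% interval 0.11 to 3.40).

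The receptor genes gave 3 different pictures. NR1H3 (LXRα, ENSG00000025434, chromosome 11, 47248300 to 47269032, plus strand), which is itself a target of LXR in human macrophages, stood at 5.15 and 10.9 CPM in the WT libraries and at 32.9 and 27.8 CPM in the S1KO libraries. Both S1KO libraries lay above both WT libraries. The log2 fold change was 1.91 ± 0.37 (SE, 95% interval 1.03 to 2.80). WT 2 was 2.13-fold above WT 1 (95% counting interval 1.75 to 2.60), so the S1KO excess was 5.81-fold over WT 1 alone and 2.73-fold over WT 2 alone.

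NR1H2 (LXRβ, ENSG00000131408, chromosome 19, 50329653 to 50382982, plus strand), the widely expressed LXR, stood at 57.1 and 87.7 CPM in the WT libraries and at 55.4 and 55.3 CPM in the S1KO libraries. The S1KO libraries lay close to WT 1 and below WT 2 (log2 fold change -0.39 ± 0.23 SE, 95% interval -0.94 to 0.17). RXRA (ENSG00000186350, chromosome 9, 134317098 to 134440585, plus strand), the partner that LXR needs on DNA, stood at 241 and 215 CPM in the WT libraries and at 261 and 236 CPM in the S1KO libraries. The RXRA groups overlapped, and its log2 fold change of 0.12 ± 0.17 (SE, 95% interval -0.29 to 0.54) turned negative on TPM, at -0.86 with a pseudocount of 1, where the median over all genes was -0.78.

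Because TPM divides by length, it allows the receptors to be set against each other within a library, and such a ratio does not depend on the mitochondrial share. The TPM of NR1H3 was 0.149 and 0.133 of that of NR1H2 in WT 1 and WT 2, and 1.06 and 0.896 of it in S1KO 1 and S1KO 2. NR1H2 transcript was thus 6.70 and 7.52 times as abundant as NR1H3 transcript in WT, and the pair was about level in S1KO. Over protein-coding transcripts alone the ratio was 0.073 and 0.083 in the WT libraries and 0.442 and 0.337 in the S1KO libraries, so NR1H2 remained the more abundant coding RNA in all 4 libraries. Non-coding transcripts of NR1H3 carried part of the S1KO level. Its retained-intron transcripts held 24.02% and 21.3% of its counts in the WT libraries and 29.1% and 37.8% in the S1KO libraries. These are not shares of the TPM in the ratios above, in which short transcripts weigh more. Of NR1H3 TPM, the retained-intron transcript with the most in S1KO held 18.2% and 14.6% in WT and 34.2% and 35.3% in S1KO. Another short one held 26.4% and 19.1% in WT and 8.67% and 21.8% in S1KO.

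In the efflux and uptake genes the WT libraries disagreed by more than the genotypes did. ABCA1 (ENSG00000165029, chromosome 9, 104781002 to 104928237, minus strand), the transporter that loads cholesterol and phospholipid onto apolipoprotein acceptors, stood at 2.82 CPM in WT 1, 28.8 in WT 2, 11.4 in S1KO 1 and 13.6 in S1KO 2. ABCG1 (ENSG00000160179, chromosome 21, 42199689 to 42297244, plus strand), which passes cholesterol on to high-density lipoprotein, stood at 0.715 CPM in WT 1, 16.5 in WT 2, 6.74 in S1KO 1 and 7.05 in S1KO 2. MYLIP (ENSG00000007944, chromosome 6, 16129125 to 16148248, plus strand), the ubiquitin ligase IDOL that sends the LDL receptor for degradation, stood at 1.07 CPM in WT 1, 14.6 in WT 2, 4.92 in S1KO 1 and 4.84 in S1KO 2. In all 3 genes the WT libraries were the extremes and the S1KO libraries lay between them, close together.

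The log2 fold change was -0.34 ± 0.88 (SE, 95% interval -2.45 to 1.77) for ABCA1, -0.33 ± 1.10 (-2.98 to 2.33) for ABCG1 and -0.68 ± 0.98 (-3.05 to 1.68) for MYLIP. These intervals hold both a fall and a rise of more than 2-fold, so 4 libraries of this kind do not settle a direction for any of the 3 genes. All 3 had a positive log2 fold change with the replicate number as a block (0.39, 0.80 and 0.18) and on TPM rescaled without mitochondrial genes (0.20, 0.56 and 0.03).

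**Figure D2:**
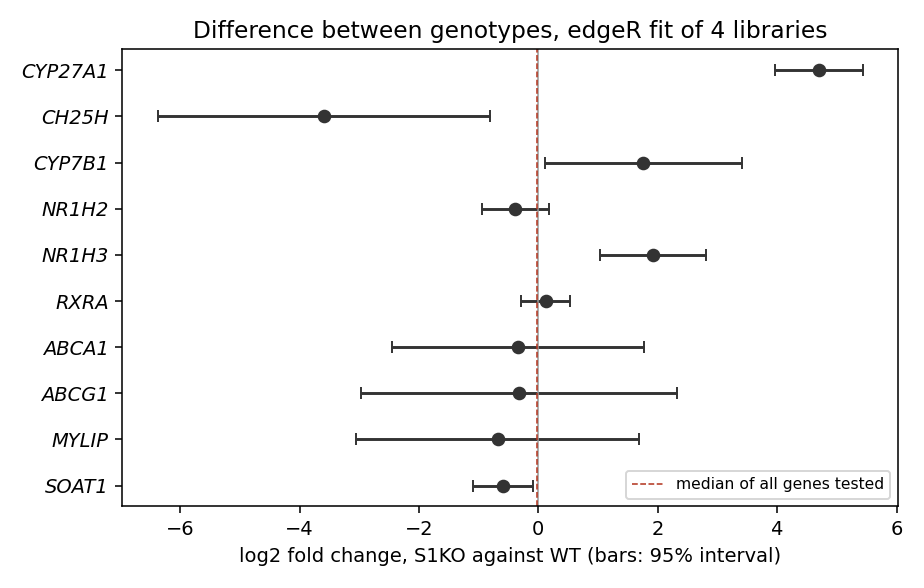
Log2 fold change of S1KO against WT for each of the 10 genes from the edgeR fit of 4 libraries (point) with its 95% interval (bar); the dashed line is the median over all genes tested, at -0.02. The intervals of ABCA1, ABCG1 and MYLIP span more than 4 log2 units, and those of RXRA and SOAT1 about 1.

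WT 2 exceeded WT 1 by 10.2-fold for ABCA1 (95% counting interval 8.09 to 12.99), by 23.1-fold for ABCG1 (14.8 to 38.2) and by 13.6-fold for MYLIP (9.40 to 20.4). With CH25H, 4 of the 10 genes had WT 2 over 4-fold above WT 1, a gap that 1.74% of all 15378 genes showed. None of the 10 had WT 1 over 4-fold above WT 2 (2.52% of all genes), and none had the S1KO libraries over 4-fold apart (2.81%). In ABCA1, ABCG1 and MYLIP both S1KO libraries also lay between the WT libraries, which combined with the 4-fold gap held for 0.793% of all genes. The intervals cover counting error only, and since the labels do not say which library came from which clone, a difference between clones, cultures or library preparations cannot be told apart. WT 1 was the library with 3185 CPM of mesenchymal marker transcripts; their part in this gap was not tested.

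The direction of the efflux genes therefore followed the WT library chosen as reference. Against WT 1 alone, the pooled S1KO libraries were 4.49-fold higher for ABCA1 (95% counting interval 3.53 to 5.78), 9.68-fold higher for ABCG1 (6.14 to 16.1) and 4.54-fold higher for MYLIP (3.07 to 6.94). Against WT 2 alone they were 2.27-fold lower for ABCA1 (2.02 to 2.54), 2.39-fold lower for ABCG1 (2.05 to 2.79) and 2.99-fold lower for MYLIP (2.51 to 3.58). Among the other genes, CYP27A1 gave nearly the same ratio against either library, 24.4-fold (17.6 to 34.8) over WT 1 and 25.9-fold (18.8 to 36.6) over WT 2.

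**Figure D3:**
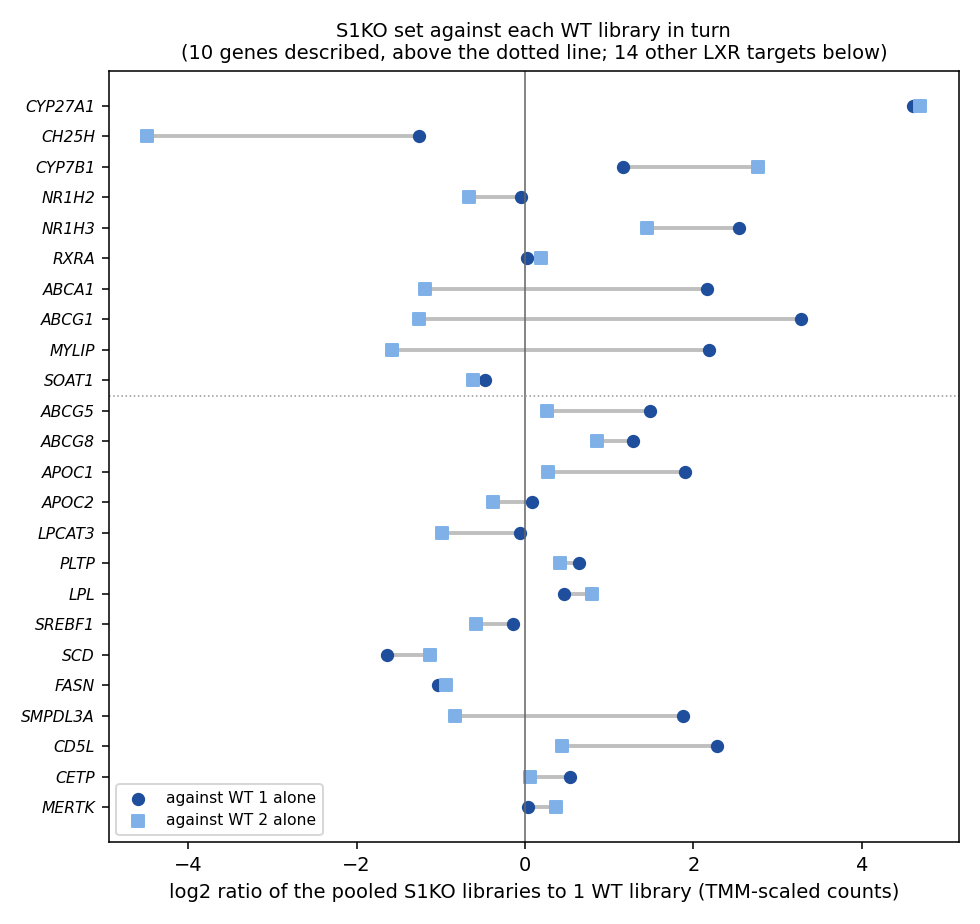
Log2 ratio of the pooled S1KO libraries to WT 1 alone (circles) and to WT 2 alone (squares), from TMM-scaled counts, for the 10 genes (above the dotted line) and 14 other LXR targets (below it); a grey bar joins the values of a gene. ABCA1, ABCG1 and MYLIP, and below the line SMPDL3A, have the circle well to the right of 0 and the square to its left.

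In edgeR's quasi-likelihood test over 4 libraries 1 of the 10 genes, CYP27A1, passed an adjusted p of 0.05, beside 0.936% of all genes tested (0.787% called higher and 0.15% lower). The 10 genes were chosen with this contrast known, and CH25H passed the filter on its WT libraries, so this count and those that follow are descriptions and support nothing. With WT 1 left out, 9 of the 10 passed, beside 13.5% of all genes; 3 were higher (6.5% of all genes) and 6 lower (6.95%). With WT 2 left out, 5 passed, beside 13.3% of all genes, and all 5 were higher (6.61%, with 6.67% of all genes lower). With S1KO 1 or S1KO 2 left out, 0 of the 15378 genes passed in edgeR, although 1365 and 1845 genes had an unadjusted p under 0.05, among them 2 and 3 of the 10. DESeq2 on all 4 libraries called CYP27A1, CH25H and NR1H3, beside 7.83% of the 14781 genes to which it gave an adjusted p. Both S1KO libraries lay above both WT libraries in 3 of the 10 genes (26% of all genes), below them in 3 (25.8%), and overlapped with them in 4; the groups thus did not overlap in 6 of 10, beside 51.8% of all genes.

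SOAT1 (ENSG00000057252, chromosome 1, 179293714 to 179358680, plus strand), the enzyme that esterifies cholesterol for storage in lipid droplets, stood at 42.2 and 46.6 CPM in the WT libraries and at 25.0 and 33.99 CPM in the S1KO libraries. Each S1KO library lay below each WT library. The log2 fold change was -0.59 ± 0.21 (SE, 95% interval -1.09 to -0.09). Within WT the libraries were close, with WT 2 over WT 1 at 1.10 (95% counting interval 1.02 to 1.19).

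Estimated counts were higher in S1KO both on the coding CYP27A1-201 and on CYP27A1-205, the model annotated as retaining an intron. CYP27A1-201 held 20.2 (WT 1) and 31.2 (WT 2) estimated counts, and 464 (S1KO 1) and 437 (S1KO 2). CYP27A1-205, which keeps the introns printed above, held 16.8 and 7.75 counts in the WT libraries and 121 and 112 in the S1KO libraries. CYP27A1-204, which keeps introns 3 and 4, held 0 counts in the WT libraries and 13.7 and 17.1 in the S1KO libraries, and the other 2 annotated transcripts held 0 in every library. These counts are not scaled for depth. As the deposited CYP27A1-201 is also shorter than its annotated model, counts on CYP27A1-205 are not a measure of intron retention alone.

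As a share of CYP27A1 counts, CYP27A1-205 took 20.2% in S1KO 1 (95% Wilson interval 17.2 to 23.6) and 19.7% in S1KO 2 (16.7 to 23.2), so the S1KO libraries agreed closely. It took 45.4% in WT 1 (30.5 to 61.1) and 19.9% in WT 2 (10.3 to 34.8). The interval of WT 2 contains both S1KO shares and that of WT 1 does not, with fewer than 40 counts behind each WT share. CYP27A1-204 took 2.29% and 3.02% in S1KO. A count of 0 in WT 1 and WT 2 allows a share of up to 8.11% and 7.69% (3 counts, counting error only), so a difference was not detectable at this depth. With protein-coding transcripts only, the log2 fold change of CYP27A1 was 4.90.

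**Figure D4:**
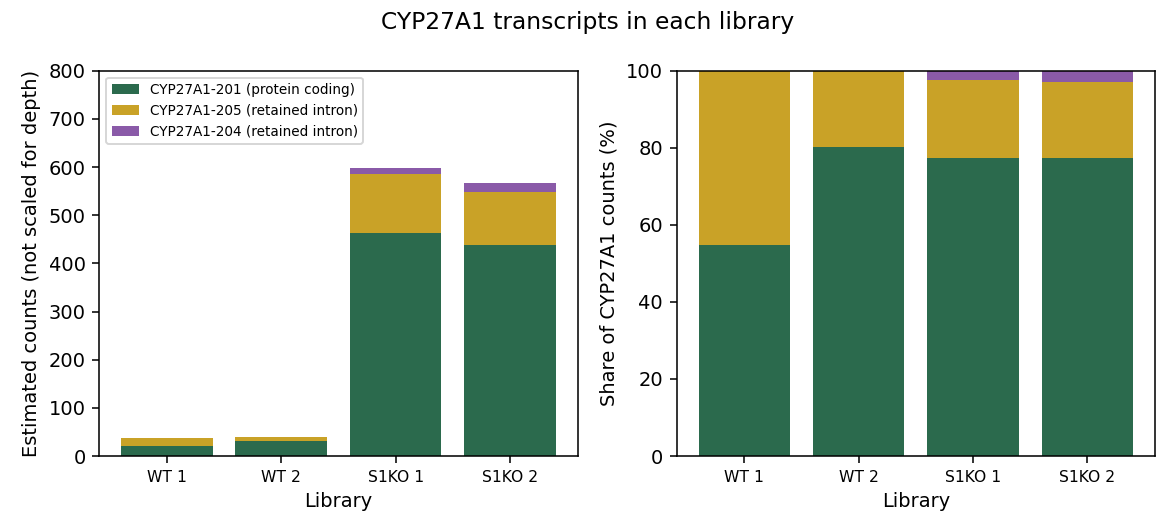
Estimated counts of the CYP27A1 transcripts in each library, not scaled for depth (left), and their shares of the CYP27A1 counts in percent (right); the bars are stacked by transcript. CYP27A1-201 makes up 77.2% to 80.1% of the counts in WT 2, S1KO 1 and S1KO 2 and 54.6% in WT 1, where the gene has 37 counts.

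The electron carriers that CYP27A1 depends on gave no call. FDX1, the ferredoxin, stood at 23.4 and 28.5 CPM in the WT libraries and 28.0 and 19.8 in the S1KO libraries (edgeR adjusted p = 0.817), and FDXR, its reductase, at 17.7 and 11.01 against 11.1 and 12.1 (adjusted p = 0.599). Within each library the TPM of CYP27A1 was 0.087 and 0.072 of that of FDX1 in WT and 2.42 and 2.28 of it in S1KO. CYP27A1 transcript was therefore below FDX1 transcript in both WT libraries and above it in both S1KO libraries. On protein-coding transcripts alone the ratio was 0.055 and 0.061 in the WT libraries and 1.96 and 1.82 in the S1KO libraries.

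Transcript shares of 2 more genes of the set are given per library, as kallisto's estimates with no test. MYLIP-201, which lacks the 191-nt exon at chr6:16130557-16130747 of MYLIP-202, took 9.62 of 30 MYLIP counts in WT 1 and 314 of 457 in WT 2. It took 0 of 73 in S1KO 1 and 0 of 103 in S1KO 2, which allows a share of up to 4.11% and 2.91% (3 counts, counting error only). The deposited MYLIP-202 is 3072 nt long, against 1666 nt in its annotated model. The split between MYLIP-201 and MYLIP-202 is therefore not a measure of this exon alone. RXRA-203, a retained-intron transcript, took 1.84% and 2.20% of RXRA counts in the WT libraries and 8.91% and 9.21% in the S1KO libraries, and RXRA-201, a processed transcript, 14.7% and 14.4% in WT against 6.72% in S1KO 1 and 0 counts in S1KO 2, which allows up to 0.0598%. The coding RXRA-202 held 82.8% to 90.7% of the counts in every library, so these shifts lay in the minor RXRA transcripts.

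Of 113 other genes in 7 lists around the pathway, 89 were tested. In edgeR 2 passed the threshold (2.25%, beside 0.936% of all genes), and with DESeq2 11 (beside 7.83% of all genes). An unadjusted p under 0.05 was found for 2993 of all 15378 genes, to be set beside such counts for the lists. Among the sterol oxidation and bile acid enzymes 15 of 24 were tested, the median log2 fold change was -0.05, and CYP46A1 rose. CYP46A1, known as the cholesterol hydroxylase of neurons, stood at 11.9 and 12.6 CPM in the WT libraries and 61.7 and 49.8 CPM in the S1KO libraries (log2 fold change 2.18 ± 0.20 SE, adjusted p = 0.0178, a call that needed both S1KO 1 and S1KO 2). At least 96.2% of its counts in every library fell on CYP46A1-204, annotated for nonsense-mediated decay, and its coding transcripts held 0 and 6.03 counts in the WT libraries and 15 and 8 in the S1KO libraries. The gene did not reach the filter with protein-coding transcripts only, so no fold change was estimated for them. The rise is in counts placed on CYP46A1-204. Its last exon makes up 5870 of its 6609 nt, of which a coding exon of the gene covers the first 111 nt. What RNA these counts come from was not tested.

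The rest of this list gave no call. STAR, which brings cholesterol to the inner mitochondrial membrane where CYP27A1 works, stood at 0.322 and 0.670 CPM in the WT libraries and 1.82 and 1.55 in the S1KO libraries (log2 fold change 1.74 ± 0.60 SE, adjusted p = 0.196), with 7.95% of its counts on coding transcripts. HSD3B7, which follows CYP27A1 and CYP7B1 in bile acid synthesis, stood at 4.54 and 5.33 CPM in the WT libraries and 7.68 and 4.65 in the S1KO libraries (adjusted p = 0.677). CYP7A1, which opens the classical bile acid route of the liver, was not tested and had a single count over the 4 libraries. Of the vitamin D genes, to which CYP27A1 is also linked as a vitamin D hydroxylase, 3 of 4 were tested and 0 passed in edgeR (0 with an unadjusted p under 0.05, 0 with DESeq2): VDR stood at 0.39 ± 0.29 and CYP27B1 at -0.68 ± 0.63 (log2 fold change and SE), and CYP24A1 had 0 counts.

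Among the other oxysterol receptors and sensors 9 of 11 were tested and 0 passed in edgeR (3 with an unadjusted p under 0.05, 2 with DESeq2), and the median log2 fold change was -0.39. GPR183, the receptor for an oxysterol that CH25H and CYP7B1 make together, repeated the order of ABCA1: 17.6 CPM in WT 1, 69.4 in WT 2, and 34.4 and 34.2 in S1KO (adjusted p = 0.773). INSIG1 and INSIG2, which bind oxysterols and hold back SREBP processing, had the smallest p of this list and stood at -1.70 ± 0.30 (adjusted p = 0.0687) and -1.01 ± 0.19 (adjusted p = 0.0798). INSIG1 stood at 67.5 and 126 CPM in the WT libraries and 28.2 and 31.4 in the S1KO libraries.

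Of 16 other LXR targets all were tested; 10 had a positive and 6 a negative log2 fold change, with a median of 0.21, and SCD alone passed. SCD, the stearoyl-CoA desaturase, fell (log2 fold change -1.41 ± 0.21 SE, adjusted p = 0.0483), a call that needed both S1KO 1 and S1KO 2. Its level was 265 and 187 CPM in the WT libraries and 83.7 and 86.8 in the S1KO libraries. SREBF1, through which LXR drives lipid synthesis, stood at 79.8 and 109 CPM in the WT libraries and 59.1 and 81.9 in the S1KO libraries (adjusted p = 0.382). SMPDL3A, a phosphodiesterase chosen after its values were seen, also had WT 2 over 4-fold above WT 1 and both S1KO libraries between them: it stood at 1.32 CPM in WT 1, 8.68 in WT 2, 6.06 in S1KO 1 and 4.04 in S1KO 2. Of the 16 other LXR targets, 2 had WT 2 over 4-fold above WT 1, beside 1.74% of all genes. The lipogenic targets SREBF1, SCD and FASN had WT 2 over WT 1 ratios of 1.36, 0.706 and 0.937. APOC1, LPCAT3, PLTP and LPL had ratios of 3.09, 1.89, 1.17 and 0.799, so a ratio under 4-fold was not particular to the lipogenic targets. APOC1, an apolipoprotein, stood at 17.3 CPM in WT 1, 53.4 in WT 2 and 60.8 and 66.8 in S1KO (adjusted p = 0.380), and LPCAT3, PLTP and LPL at -0.64, 0.55 and 0.60 (log2 fold change) with adjusted p from 0.200 to 0.420. PLTP and LPL turned negative on log2(TPM + 1), where the median over all genes was lower still.

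The other 3 lists held no called gene in edgeR. Of the LXR partners and coregulators 15 of 17 were tested, with a median of 0.05 (2 with an unadjusted p under 0.05, 1 with DESeq2). NCOR1, the corepressor that LXR binds without ligand, stood at 124 and 134 CPM in the WT libraries and 269 and 245 in the S1KO libraries (log2 fold change 0.99 ± 0.17 SE, adjusted p = 0.0596). On log2(TPM + 1) NCOR1 was at -0.03, above the negative median over all genes on that scale. RXRB stood at -0.49 ± 0.18 (adjusted p = 0.210). Of the PPAR and RAR genes 14 of 20 were tested, with a median of 0.00 (4 with an unadjusted p under 0.05, 0 with DESeq2). PPARG, which is known to raise CYP27A1 and NR1H3 in macrophages, stood at 0.500 and 1.31 CPM in the WT libraries and 3.17 and 1.13 in the S1KO libraries (adjusted p = 0.409), and RARA at 17.1 and 32.3 against 17.5 and 17.1 (adjusted p = 0.424). ANGPTL4 and RDH10 had the smallest p of this list, at 1.60 ± 0.56 and -1.18 ± 0.43 (adjusted p = 0.204 and 0.214).

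Of the genes of cholesterol uptake, lysosomal release and storage, the list nearest in function to SOAT1, 18 of 22 were tested, with a median of -0.22, 6 positive and 12 negative (5 with an unadjusted p under 0.05, 3 with DESeq2). LRP1, a receptor for lipoproteins, and ABCA7, a lipid transporter, had the smallest p, at -0.68 ± 0.17 (adjusted p = 0.108) and 0.71 ± 0.20 (adjusted p = 0.137). NPC1, NPC2 and LIPA, which free cholesterol from lysosomes, stood at -0.24, -0.27 and 0.01, with adjusted p from 0.495 to 0.990.

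The genes whose pattern over the 4 libraries was most like that of CYP27A1, by Euclidean distance between mean-centred log2 CPM among 12074 protein-coding genes with mean TPM of at least 1, were MAB21L3 (0.257), MMP7 (0.367), KCNN4 (0.513), ADAMTSL3 (0.599) and ATP6V0D2 (0.748). MAB21L3 stood at 1.32 and 1.40 CPM in the WT libraries and 35.8 and 24.5 in the S1KO libraries. MMP7, a secreted protease, had 5 counts in each WT library and 148 and 104 in S1KO. No ADAMTSL3 counts lay on transcripts annotated as protein-coding. With 4 libraries such likeness is a description, and genes high in S1KO were bound to be found.

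Along the chromosome, 0 of 28 genes tested within 500 kb of CYP27A1 passed in edgeR, beside 0.936% of all genes. An unadjusted p under 0.05 was found for 3 of them, beside 2993 of all 15378 genes. With DESeq2 0 passed, beside 7.83% of all genes given an adjusted p. With so low a share over all genes, 0 calls in edgeR set nothing apart in these 28 genes. Their median log2 fold change was -0.08, and 11 were positive. The nearest tested genes on either side, TTLL4 and NHEJ1, stood at 0.24 ± 0.17 and 0.31 ± 0.33 (adjusted p = 0.497 and 0.653). INPP5D lies on the same chromosome, 14.2 Mb beyond CYP27A1.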

How the data were processed

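RNA-seq was read from 4 libraries of iMGL, 2 WT and 2 S1KO, grouped by the genotype in the labels, each library counting as 1 replicate. Poly-A RNA was sequenced in read pairs of 150 bp, per the labels' protocols. The submitters' processing notes name kallisto and hg38; the version and the transcript set were not given in the sources used here. Each transcript has, per the file headers, a deposited estimated count and TPM. Estimated counts divide a read among the transcripts it fits, so shares of single transcripts are estimates, and the deposited TPM values, so named in the file headers, share 1 total per library in which mitochondrial transcripts count.

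Of 188753 transcripts, 169797 were matched to genes by identifier and 15521 by symbol with GENCODE 29 (GRCh38). The 3435 others had no gene name and were dropped (0.323% to 0.643% of the counts). Lengths of some transcripts differ from GENCODE 29, so the authors' transcript set is another release. Gene sums of estimated counts were rounded, filtered with filterByExpr (15378 of 35585 kept) and scaled by TMM, with factors of 1.31 (WT 1), 1.22 (WT 2), 0.654 (S1KO 1) and 0.957 (S1KO 2). The model in edgeR 4.0.16 (glmQLFit and glmQLFTest, two-sided, R 4.3.3) held genotype alone, and p-values were adjusted by Benjamini-Hochberg over all genes at 0.05. The biological coefficient of variation common to all genes was 0.294. Printed levels are TMM-scaled CPM computed from the deposited estimated counts. The fit was tested on simulated data (15378 genes, S1KO against WT): it called 29% of the genes altered 2-fold and 92% of those altered 4-fold, with 3 false calls among 124. The altered genes were drawn only from those with higher expected counts, so these rates do not cover low-count genes such as CH25H and CYP7B1. Counts were simulated with the dispersion trend, not with each gene's own spread. Ratios between libraries have exact conditional intervals and shares Wilson intervals, both at 95% and for counting error only. A WT library set alone against pooled S1KO libraries is a description with no test.

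The members, the 7 pathway lists and the 5 marker lists were chosen with earlier results of these data known. Genes named are INPP5D, the 10 members, up to 4 called genes of each list or else the 2 of smallest p, a panel of pathway genes, the 5 protein-coding genes most like CYP27A1 and its nearest tested neighbours. Not every gene of this rule or of the lists is reported here, and others are said to be chosen after their values were seen or are background examples. Alternatives were DESeq2 1.42.0 and its size factors, no filter, a stricter filter, the replicate number as a block, an effective length offset, leaving out each library, limma 3.58.1 on log2(TPM + 1) and log2(TPM + 0.1), mitochondrial genes left out, and protein-coding transcripts only. With a library left out, the lone library is taken to vary as the other group does.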

Additional observations from a re-analysis of the deposited data

How the results depend on the processing

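The genes called (144) were 1157 with DESeq2, 1362 with no filter, 223 with the stricter filter, 298 on TPM without mitochondrial genes, 21 with protein-coding transcripts only, and from 0 to 2069 with 1 library left out. On log2(TPM + 1) and log2(TPM + 0.1), where the median over all genes moved to -0.78 and -0.97, limma called 2893 and 2638 genes, 4.60% and 4.55% of them higher in place of 84.0%. That share was 56.4% with DESeq2 and 43.0% with no filter. Of the 10 members 1 was called in edgeR, beside 0.936% of all genes, and 3 with DESeq2, beside 7.83%. On log2(TPM + 1) and log2(TPM + 0.1), 3 and 3 members were called, beside 2893 and 2638 of 15378 genes. With no filter and on TPM without mitochondrial genes, 3 and 2 members were called, beside 1362 and 298 of all genes. Of the other pathway genes (2 called), 11 were called with DESeq2, 9 with no filter, 4 with the stricter filter, 19 and 18 on TPM, 0 with protein-coding transcripts only (17 at an unadjusted p under 0.05) and from 0 to 23 with 1 library left out. CYP27A1 kept its sign in all 15 alternatives, from 2.87 to 4.95, and from 4.36 to 4.95 with 1 library left out; CYP46A1 and SCD, like every call, were lost without S1KO 1 and without S1KO 2.

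With the replicate number as a block edgeR called 0 genes, 0 members and 0 other pathway genes (2892, 5 and 23 at an unadjusted p under 0.05). CYP27A1 was at 4.67 under the block, and ABCA1, ABCG1 and MYLIP turned to 0.39, 0.80 and 0.18. What libraries of the same number share is not in the labels. Over the genes tested, the deviations of WT 1 and S1KO 1 from their group means correlated at 0.023. A shared batch was not tested.

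Over 652 single-gene values under alternatives, 516 kept direction and side of the threshold, 59 passed it newly, 30 lost it and 47 turned sign. Signs turned on log2(TPM + 1) for RXRA (-0.86), VDR (-0.37), NCOR1 (-0.032), ABCA7 (-0.042), HSD3B7 (-0.56), LPL (-0.54), PLTP (-0.28), LIPA (-0.89), TTLL4 (-1.09) and NHEJ1 (-0.63). On log2(TPM + 0.1) the same 10 genes were at -0.87, -0.51, -0.033, -0.043, -0.73, -0.61, -0.33, -0.91, -1.14 and -0.86. On TPM without mitochondrial genes ABCA1 (0.20), ABCG1 (0.56), MYLIP (0.029), GPR183 (0.073), LPCAT3 (0.31), NPC1 (0.12) and TTLL4 (-0.068) turned, with the length offset LPCAT3 (0.23), NPC1 (0.049) and TTLL4 (-0.14), with no filter LIPA (-0.011), and with protein-coding transcripts only LIPA (-0.016) and CYP27B1 (2.09). With 1 library left out the sign turned, over ranges of -1.20 to 2.14 for ABCA1, -1.26 to 3.26 for ABCG1, -1.58 to 2.18 for MYLIP, -1.02 to 0.96 for GPR183, -0.40 to 0.10 for FDX1, -0.61 to 0.075 for FDXR, -0.10 to 0.62 for HSD3B7, -0.26 to 0.29 for LIPA and -0.90 to 0.020 for RARA. The highest values of ABCA1, ABCG1, MYLIP and GPR183 were those without WT 2. The cause of these turns was not tested. Depth limits CH25H, CYP7B1 and the WT levels and transcript shares of CYP27A1, which rest on fewer than 40 counts in most libraries.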
